A study of Mus musculus with 12 samples.

Results

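Genes of 9 acute phase plasma proteins were followed in kidney RNA: Saa1, Saa2, Saa3, Orm1, Itih4, Cp, Hp, Hpx and Lbp. They were chosen by name, as plasma proteins of the acute phase response, out of the 43346 genes counted. Earlier results of these data were known when they were chosen. The study sequenced 6 kidney libraries of mice given HP-AKI (samples 7, 8, 9, 11, 12 and 13) and 6 of mice given a sham procedure (Sham, samples 1 to 6), all taken 1 day afterwards. The labels do not spell out HP-AKI, which in this field usually stands for heme protein-induced acute kidney injury. They name no strain, sex, age, transgene or batch, and they do not say whether each library came from its own animal, so the p-values below measure the spread between libraries, which may be technical. Gene counts summed to between 31624522 and 40630917 per HP-AKI library and between 35201197 and 41951129 per Sham library.

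Acute phase proteins are blood proteins whose amounts change after injury or infection, and the liver is their main source. In hepatocytes, interleukin-6 and its relatives act through the shared receptor chain gp130 and the factor STAT3, while interleukin-1 and tumour necrosis factor act through NF-kB and C/EBP factors. Several of these proteins bind products of red cell and muscle breakdown: haptoglobin (Hp) binds free haemoglobin, hemopexin (Hpx) binds free heme, and ceruloplasmin (Cp) carries copper and oxidises iron. Others bind lipids or microbial products. Serum amyloid A proteins travel on high-density lipoprotein, lipopolysaccharide-binding protein (Lbp) hands bacterial lipopolysaccharide to CD14, and orosomucoid (Orm1) binds lipids and drugs.

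Saa1, Saa2 and Saa3 lie close together on chromosome 7, and their promoter windows are shown because Saa1 and Saa3 rose while Saa2 had too few counts to compare. The window of Itih4, an inter-alpha-trypsin inhibitor heavy chain gene that rose by about as much as Saa1, is shown beside them. Each window is the RefSeq sequence (GRCm38.p6) from 250 bases before to 50 bases after the gene's start, printed 5′ to 3′ on the gene's own strand. Capitals mark letters that match the C/EBP pattern TTNNGNAA or the STAT pattern TTCNNNGAA, searched on both strands. The windows are chr7:46742931-46743230 (minus strand) for Saa1, chr7:46751583-46751882 (plus) for Saa2, chr7:46715627-46715926 (minus) for Saa3 and chr14:30886226-30886525 (plus) for Itih4.
Saa1: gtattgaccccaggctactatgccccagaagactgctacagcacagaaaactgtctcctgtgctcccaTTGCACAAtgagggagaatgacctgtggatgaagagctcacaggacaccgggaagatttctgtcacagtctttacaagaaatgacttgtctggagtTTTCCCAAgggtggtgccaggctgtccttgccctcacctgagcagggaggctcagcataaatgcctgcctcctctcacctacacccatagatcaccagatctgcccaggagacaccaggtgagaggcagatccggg
Saa2: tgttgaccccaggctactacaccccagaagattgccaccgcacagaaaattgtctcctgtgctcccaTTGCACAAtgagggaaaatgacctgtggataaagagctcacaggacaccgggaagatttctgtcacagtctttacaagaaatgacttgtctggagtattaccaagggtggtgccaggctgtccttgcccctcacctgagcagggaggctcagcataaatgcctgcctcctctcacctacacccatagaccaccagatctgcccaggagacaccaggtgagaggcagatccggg
Saa3: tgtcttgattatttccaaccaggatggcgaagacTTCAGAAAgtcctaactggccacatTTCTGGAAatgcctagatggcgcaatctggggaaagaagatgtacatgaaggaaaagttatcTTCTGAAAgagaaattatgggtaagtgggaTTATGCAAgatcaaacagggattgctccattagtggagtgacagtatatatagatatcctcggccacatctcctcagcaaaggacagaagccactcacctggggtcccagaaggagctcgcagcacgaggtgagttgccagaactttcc
Itih4: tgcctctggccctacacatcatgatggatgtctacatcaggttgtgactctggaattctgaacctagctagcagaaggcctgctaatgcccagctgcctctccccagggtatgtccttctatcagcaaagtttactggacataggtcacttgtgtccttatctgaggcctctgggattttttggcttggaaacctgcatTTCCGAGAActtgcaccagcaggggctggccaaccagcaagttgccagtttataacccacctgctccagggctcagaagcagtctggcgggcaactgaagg

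With the start site counted as 0, Saa1 held C/EBP matches at -182 to -175 and at -86 to -79, the second followed directly by a match to the NF-kB pattern (3 G and 2 C with 5 bases of any kind between them) at -78 to -69. Saa2 held the upstream C/EBP match, at -183 to -176, and the NF-kB match, at -79 to -70, but not the second C/EBP match. These windows were identical at 287 of 301 aligned positions, or 95.3%. Saa3 held 4 C/EBP matches, starting at -216, -191, -129 and -99, and shared 54.2% of aligned positions with Saa1. Itih4 held a STAT match at -51 to -43 and NF-kB matches at -144 to -135 and -30 to -21. Among all 32851 windows in the RefSeq table, 40.7% held a C/EBP match, 50.8% an NF-kB match and 8.3% a STAT match. Windows of Cp (2 starts) and Hpx were also in the table, and each held at least 1 C/EBP match. A match describes letters only and is no measure of binding.

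The tested genes were all called higher, though the filter left some of them little room to be called lower. With edgeR's quasi-likelihood test and Benjamini-Hochberg adjustment at 0.05, 7 of the 9 passed the filter on low counts, and all 7 were higher in HP-AKI, among 17470 tested genes of which 37.7% were called higher and 35.2% lower, 72.8% in all. Their median log2 fold change was 2.86, which is the value of Saa1, where that of all tested genes was 0.04. In 6 of the 7 every HP-AKI library lay above every Sham library, a separation that 26.7% of all tested genes had in that direction and 52.4% in either direction. Saa1, Saa3 and Itih4, with 19, 7 and 60 counts over the Sham libraries, passed the filter through their HP-AKI counts. At such Sham levels a lower HP-AKI level would have left them untested, so their direction, size and separation add no support. The other tested members, Cp, Hp, Hpx and Lbp, had log2 fold changes of 1.01, 2.97, 0.61 and 1.52, and Hpx overlapped between the groups. Listed genes with few Sham counts, such as Il6, Il11, Il1rn, Cebpb, Cebpd, Fpr2 and Lrg1, passed in the same way. Their direction adds no support to the counts of called genes in their lists. Saa2 and Orm1 were dropped by the filter, and their counts are given with those of their families. RNA was taken from whole tissue, so more cells of a type and more RNA per cell cannot be told apart in any of these differences.

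**Figure D1:**
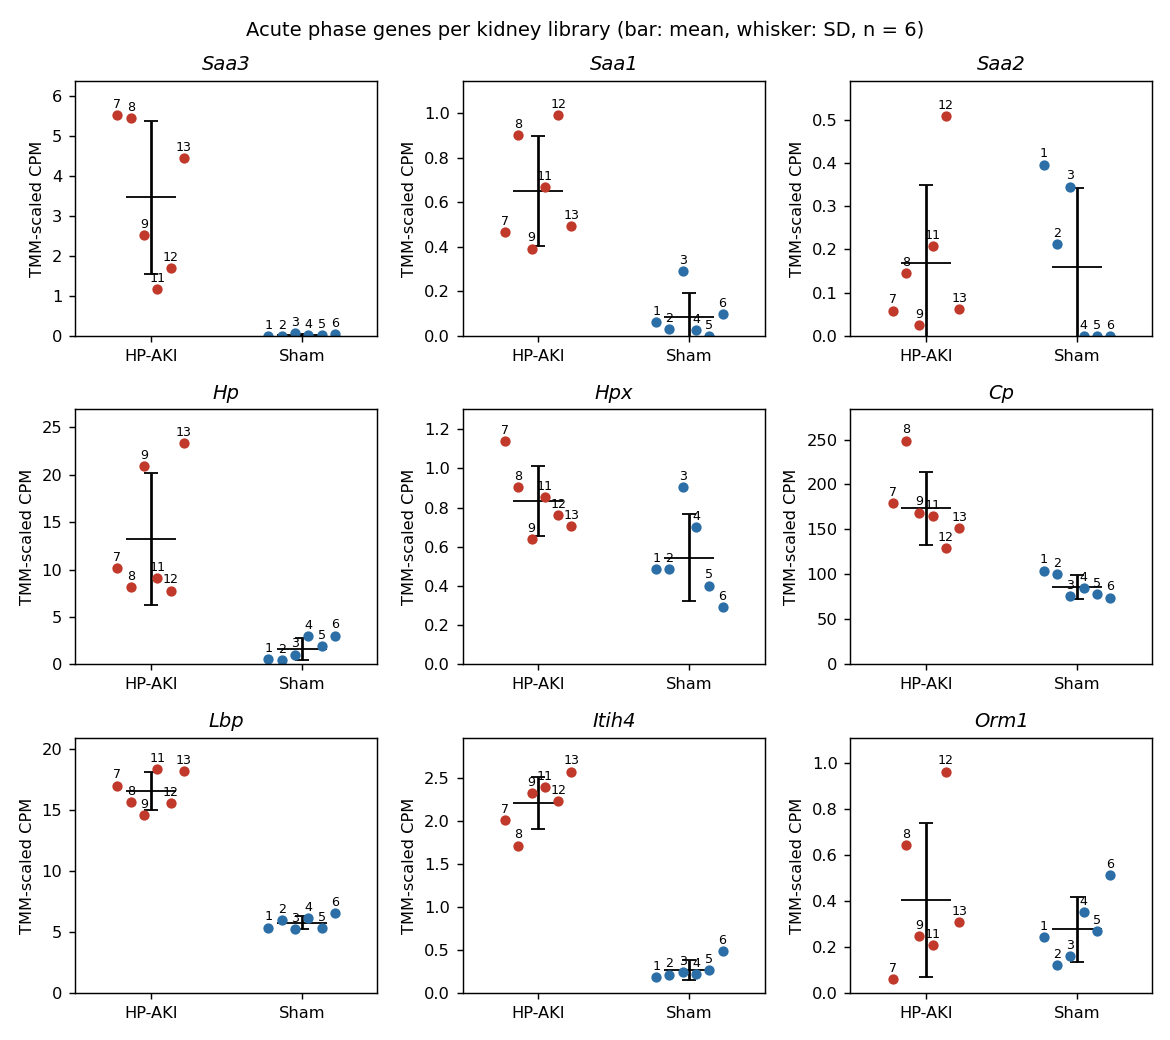
Scaled CPM (vertical axes, linear, 1 panel per gene) of the 9 genes in 6 HP-AKI libraries (left in each panel) and 6 Sham libraries (right), with a point per library and the mean ± SD; a lower whisker that would pass 0 stops at 0. The groups stand apart in Saa1, Saa3, Itih4, Cp, Hp and Lbp and overlap in Saa2, Orm1 and Hpx.

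Saa3, a serum amyloid A gene that mice also express outside the liver, had a low but clear level in HP-AKI kidneys and nearly no reads in Sham kidneys. It had 735 counts over the HP-AKI libraries and 7 over the Sham libraries. In CPM, the count as a share of the library total after TMM scaling, HP-AKI libraries 7, 8, 9, 11, 12 and 13 had 5.52, 5.45, 2.53, 1.18, 1.70 and 4.45 CPM, while Sham libraries 1 to 6 had 0, 0, 0.0796, 0.0270, 0.0268 and 0.0488 CPM. The lowest HP-AKI library was thus above all Sham libraries, and among the HP-AKI libraries 7, 8 and 13 were high and 11 and 12 low. The log2 fold change was 6.61 ± 0.59 (SE; edgeR adjusted p = 8.52e-08). Without Sham 1, Sham 2 and HP-AKI 8 together it was 5.92. The gene (ENSMUSG00000040026) lies at chr7:46711998-46715676 on the minus strand.

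Saa1 encodes a main circulating form made by the liver. Its HP-AKI libraries ranged from 0.392 to 0.989 CPM with a median of 0.580, and its Sham libraries from 0 to 0.292 CPM with a median of 0.0456. The groups did not overlap, although Sham 3, with 11 of the 19 Sham counts, came near the lowest HP-AKI library. The means were 0.652 ± 0.247 and 0.0846 ± 0.107 CPM in HP-AKI and Sham libraries (SD, n = 6 each), a log2 fold change of 2.86 ± 0.51 (SE; edgeR adjusted p = 1.26e-04). Without Sham 3 the log2 fold change was 3.78. Saa1 (ENSMUSG00000074115) lies at chr7:46740501-46742980 on the minus strand.

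Saa2, the close neighbour of Saa1 (ENSMUSG00000057465, chr7:46751833-46754314, plus strand), showed no such separation. It had 37 counts in HP-AKI and 33 in Sham libraries. By library these were 2, 5, 1, 9, 18 and 2 counts in HP-AKI 7, 8, 9, 11, 12 and 13, and 13, 7, 13, 0, 0 and 0 counts in Sham 1 to 6. The Sham counts thus came from 3 libraries, and 4 of the 6 HP-AKI libraries had fewer counts than any of those 3. In a fit with no filter the log2 fold change was 0.08 ± 0.81 (SE; edgeR adjusted p = 0.949), an error too large to read a size from. The transcripts of Saa1 and Saa2 were identical at 87.3% of aligned positions, and 13.2% of the 50-base windows of Saa1 occur unchanged in Saa2, so the split of reads between these genes is uncertain.

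The 3 genes took different shares of the serum amyloid reads. Per kilobase of listed gene length, Saa3 made up 92.3%, 85.6%, 87.4%, 60.5%, 56.4% and 90.2% of the summed Saa1, Saa2 and Saa3 level in HP-AKI 7, 8, 9, 11, 12 and 13. In Sham libraries 1, 2 and 3 Saa2 made up 86.6%, 87.4% and 47.2%, and in Sham 4 to 6 it had no count. Saa3 was therefore the leading form in every HP-AKI library, but the Sham shares rest on 1 to 27 counts per library, against 89 to 223 in HP-AKI, and are described only. The fourth gene of the family, Saa4, which is constitutive rather than acute phase, had 58 counts in HP-AKI and 49 in Sham libraries.

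**Figure D2:**
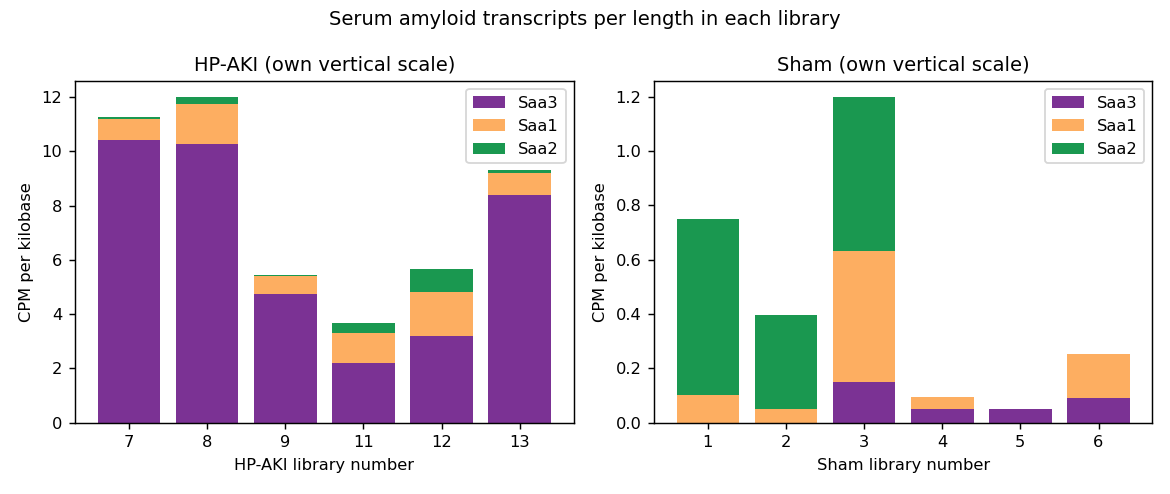
Level of Saa1, Saa2 and Saa3 per library as stacked bars in scaled CPM per kilobase (linear vertical axes that start at 0), with HP-AKI libraries left and Sham libraries right on a separate, smaller scale. Saa3 is the largest segment in all 6 HP-AKI bars, while Saa2 is the largest in Sham 1 to 3 and absent in Sham 4 to 6.

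Neutrophil marker genes moved with Saa3. Over the 10 listed neutrophil genes the summed level ranged from 20.8 to 172 CPM in HP-AKI and from 2.52 to 4.47 CPM in Sham libraries. Of its 7 tested genes 6 were called higher and 1, Ltf, lower, where 37.7% of all tested genes were called higher and 35.2% lower. At least Mmp8, Retnlg and Cxcr2, with 5, 22 and 35 counts over the Sham libraries, passed the filter through their HP-AKI counts. Their direction therefore adds no support. No listed neutrophil gene was at 0 in all libraries, although the granule gene Camp had 9 counts in HP-AKI and 0 in Sham. Within HP-AKI the sum was highest in library 8 and lowest in libraries 11 and 12, which also had the lowest Saa3, but library 7 had the highest Saa3 and a neutrophil sum of 41.2 CPM, below the median of 51.8 CPM. Macrophage markers did not move as a group, with 3 of 10 higher, 4 lower and sums of 101 to 131 CPM in HP-AKI and 119 to 160 CPM in Sham libraries. The part of either cell type in the Saa3 values was not tested.

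The haemoglobin and heme scavengers differed in size of response. Hp (ENSMUSG00000031722, chr8:109575130-109579172, minus strand) had 10.2, 8.18, 20.9, 9.13, 7.77 and 23.3 CPM in HP-AKI 7, 8, 9, 11, 12 and 13. In Sham 1 to 6 it had 0.578, 0.485, 1.04, 2.99, 1.90 and 3.03 CPM. The groups did not overlap, and the lowest HP-AKI library was more than any Sham library even though each group spread widely. The means of 13.2 ± 6.95 and 1.67 ± 1.15 CPM in HP-AKI and Sham libraries (SD, n = 6 each) stand 7.92-fold apart, with a log2 fold change of 2.97 ± 0.45 (SE; edgeR adjusted p = 2.35e-05).

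The libraries with the most Hp also had the most fat marker reads, though the others did not follow the same order. Libraries HP-AKI 13 and 9 and Sham 6 and 4 had the most Hp of their groups, and the same libraries had the highest summed fat markers without Fabp4, which endothelial cells also express. That sum was 12.4, 9.84, 35.4, 15.9, 21.3 and 61.9 CPM in HP-AKI 7, 8, 9, 11, 12 and 13, and 13.1, 6.19, 16.1, 27.9, 18.4 and 38.5 CPM in Sham 1 to 6. Much of it was Ucp1 and Lipe, at 28.2 and 15.9 CPM in HP-AKI 13 and 9.62 and 13.6 CPM in Sham 6. Lipe averaged 10.2 CPM in HP-AKI and 10.5 CPM in Sham libraries. HP-AKI 12 had the lowest Hp of its group but a higher fat sum than HP-AKI 7, 8 and 11, and HP-AKI 7 had more Hp than HP-AKI 11 with a lower fat sum. The sums overlap between the groups. Sham 1, Sham 2 and HP-AKI 8 had the lowest fat sums of their groups and low Hp. In the same libraries Lrp1, a receptor taken up below, was lowest of its groups and Cp highest. The shared order thus reaches beyond Hp and fat, and its cause was not tested. Without Sham 1, Sham 2 and HP-AKI 8 together the Hp log2 fold change was 2.62 (edgeR adjusted p = 3.59e-05). Of all 8 fat genes 3 (Cidec, Lep and Fabp4) were called higher in HP-AKI, beside 37.7% of all tested genes. Adipoq, the adiponectin gene, averaged 0.967 CPM in HP-AKI and 2.06 CPM in Sham (log2 fold change -1.09; edgeR adjusted p = 0.184). With HP-AKI 13 and 9 and Sham 6 and 4 left out, which also had the most Adipoq of their groups, the Hp log2 fold change was 3.12 (edgeR adjusted p = 2.16e-05). This omission was chosen after seeing the data, it takes the libraries with the most Hp out of both groups alike, and the part of fat in the Hp values was not tested.

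**Figure D3:**
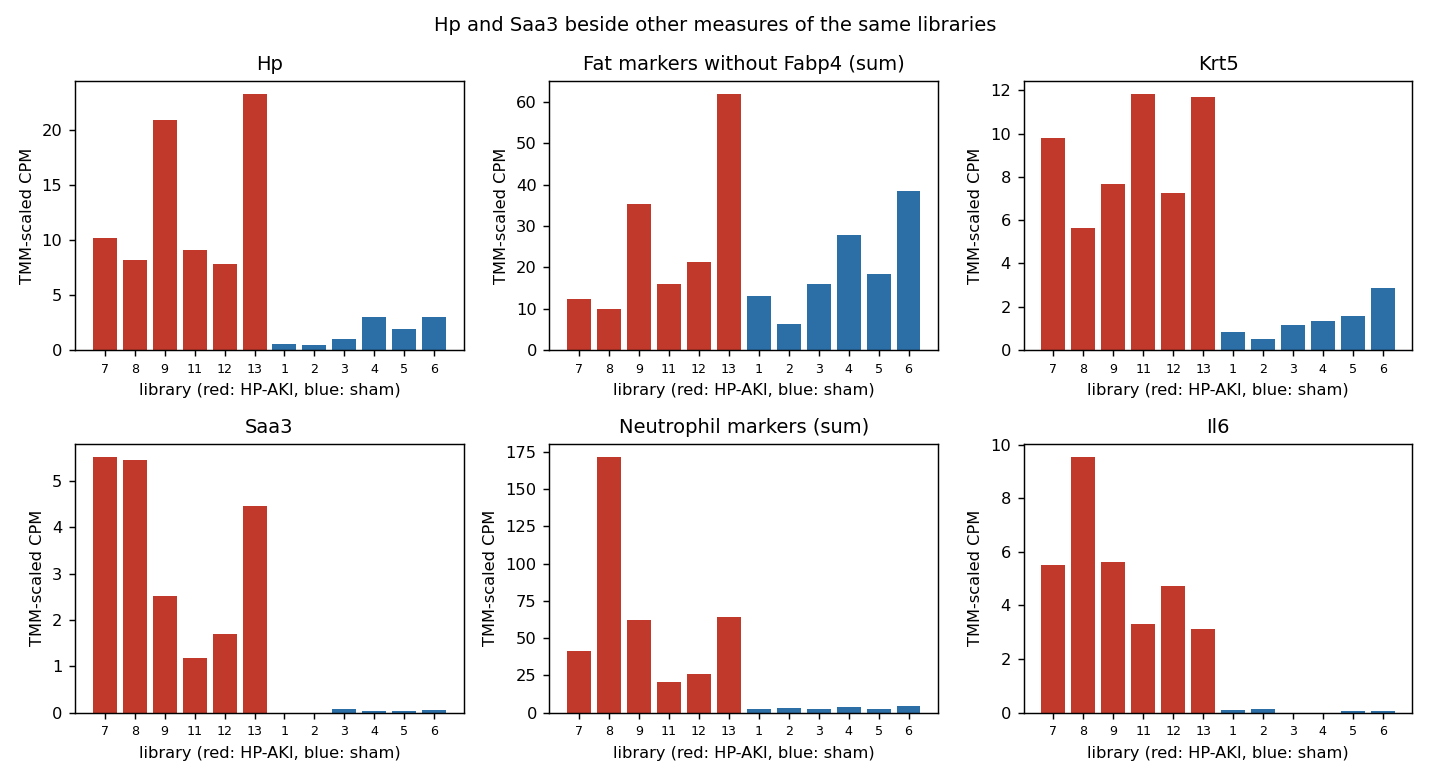
Bars of scaled CPM per library (linear vertical axes from 0; HP-AKI left, Sham right) for Hp, the fat markers without Fabp4 and Krt5 in the upper panels and for Saa3, the neutrophil markers and Il6 in the lower panels. HP-AKI 13 and 9 and Sham 6 and 4 are the highest of their groups for Hp and the fat sum; HP-AKI 8 holds the highest neutrophil sum, at 172 CPM.

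Hpx (ENSMUSG00000030895, chr7:105591613-105600116, minus strand) was low and barely separated. HP-AKI libraries ranged from 0.638 to 1.14 CPM with a median of 0.808, and Sham libraries from 0.293 to 0.902 CPM with a median of 0.486, so the groups overlapped. The log2 fold change was 0.61 ± 0.26 (SE; edgeR adjusted p = 0.0450). The call did not hold in 14 of 20 alternative fits, where the log2 fold change stayed between 0.47 and 0.81 over all 20 and the adjusted p between 0.00953 and 0.197. The ratio of Hp to Hpx in CPM was 8.92 to 33.0 in HP-AKI libraries and 1 to 10.3 in Sham libraries, with equal counts in Sham 2. These are ratios of reads without regard to gene length.

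The receptors that clear the loaded scavengers rose as well. Cd163, the macrophage receptor for haptoglobin bound to haemoglobin, averaged 3.11 ± 0.638 CPM in HP-AKI and 0.742 ± 0.185 CPM in Sham libraries (SD, n = 6 each; log2 fold change 2.06; edgeR adjusted p = 1.39e-07). Cd163 also belongs to the 10 listed macrophage markers. Of these markers 3 were called higher and 4 (Adgre1, Csf1r, Lyz2 and Ccr2) lower. These counts lie near the shares over all tested genes, 37.7% higher and 35.2% lower. Lrp1, the receptor for hemopexin bound to heme, averaged 83.6 ± 30.4 CPM in HP-AKI and 36.0 ± 11.9 CPM in Sham libraries, a log2 fold change of 1.21 (edgeR adjusted p = 5.15e-04).

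Cp had the highest level of the 9 genes in both groups and rose in HP-AKI. HP-AKI 7, 8, 9, 11, 12 and 13 had 179, 249, 169, 165, 129 and 151 CPM, and Sham 1 to 6 had 104, 100, 75.8, 84.5, 77.9 and 74.3 CPM. All HP-AKI libraries lay above all Sham libraries, with library 8 the highest. The means were 173.7 ± 40.6 and 86.2 ± 13.1 CPM in HP-AKI and Sham libraries (SD, n = 6 each), 2.02-fold apart, with a log2 fold change of 1.01 ± 0.14 (SE; edgeR adjusted p = 1.09e-05). Cp made up 81.8% ± 4.28 of the summed CPM of the 9 genes in HP-AKI and 90.5% ± 2.41 in Sham libraries. The gene (ENSMUSG00000003617, chr3:19957054-20009145, plus strand) shares 108 of its 9566 exon bases with Hps3 on the other strand, and whether the counting used strand is not given in the sources used here. Hps3 fell, with 53.6 ± 5.28 CPM in HP-AKI and 77.3 ± 12.1 CPM in Sham libraries (log2 fold change -0.53; edgeR adjusted p = 2.71e-04).

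Other iron oxidases and the exporter they work with were mixed. Heph, the membrane-bound relative of ceruloplasmin, fell, with 26.2 CPM in HP-AKI and 34.3 CPM in Sham libraries (log2 fold change -0.39; edgeR adjusted p = 0.0228), a call that was lost when counts were scaled by library size only. Hephl1 had 48 counts in HP-AKI and 0 in Sham, so it was at least 15.6-fold higher if the Sham libraries together are given 3 counts. Slc40a1, encoding ferroportin, averaged 99.2 ± 20.6 CPM in HP-AKI and 113 ± 16.0 CPM in Sham libraries (log2 fold change -0.18 ± 0.13, SE; edgeR adjusted p = 0.207). Without HP-AKI 8 its log2 fold change was -0.32 and passed the test.

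Lbp varied little within groups. HP-AKI 7, 8, 9, 11, 12 and 13 had 17.0, 15.7, 14.6, 18.4, 15.6 and 18.2 CPM, and Sham 1 to 6 had 5.36, 5.97, 5.26, 6.15, 5.31 and 6.52 CPM. The groups were far apart, with means of 16.6 ± 1.53 and 5.76 ± 0.527 CPM in HP-AKI and Sham libraries (SD, n = 6 each). They differed 2.88-fold, a log2 fold change of 1.52 ± 0.10 (SE; edgeR adjusted p = 2.23e-09). Lbp (ENSMUSG00000016024) lies at chr2:158306493-158332852 on the plus strand. Its partner Cd14, the receptor that takes lipopolysaccharide from Lbp, averaged 39.5 ± 13.2 CPM in HP-AKI and 3.35 ± 0.872 CPM in Sham libraries, a log2 fold change of 3.55 ± 0.23 (SE; edgeR adjusted p = 1.89e-09). Tlr4 and Ly96, the signalling receptor and its co-receptor, were also called higher, with log2 fold changes of 0.93 and 0.55. Its relatives did not move the same way: Pltp, a phospholipid transfer protein, fell, with a log2 fold change of -0.96, and Bpi had 0 counts in HP-AKI and 1 in Sham libraries.

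Itih4 (ENSMUSG00000021922, chr14:30886476-30901981, plus strand) rose, while most of its tested relatives fell. HP-AKI 7, 8, 9, 11, 12 and 13 had 2.02, 1.72, 2.33, 2.40, 2.23 and 2.58 CPM, and Sham 1 to 6 had 0.183, 0.212, 0.239, 0.216, 0.268 and 0.488 CPM. The lowest HP-AKI library was above the highest Sham library, which was Sham 6. The means were 8.27-fold apart, with a log2 fold change of 3.01 ± 0.22 (SE; edgeR adjusted p = 1.06e-08). Itih2 and Itih5, heavy chain genes of the same family, fell, with log2 fold changes of -1.81 ± 0.19 and -1.56 ± 0.11 (SE; edgeR adjusted p = 4.88e-07 and 5.61e-09). Itih1 fell as well, with 2.41 CPM in HP-AKI and 5.33 CPM in Sham libraries, and Itih3 had 1.97 CPM in HP-AKI and 1.85 CPM in Sham (edgeR adjusted p = 0.530). Ambp, which encodes the light chain that these heavy chains are joined to, was called higher at a log2 fold change of 0.59 (edgeR adjusted p = 0.0289).

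Orm1 (ENSMUSG00000039196, chr4:63344560-63348163, plus strand) had 87 counts in HP-AKI and 62 in Sham libraries. By library it had 2, 22, 10, 9, 34 and 10 counts in HP-AKI 7, 8, 9, 11, 12 and 13, and 8, 4, 6, 13, 10 and 21 counts in Sham 1 to 6. All Sham libraries lay inside the range of the HP-AKI libraries, of which 12 and 8 were highest and 7 lowest. In the 9 alternative fits whose filter kept it, its log2 fold change ranged from 0.08 to 0.71 and its edgeR adjusted p from 0.182 to 0.914. Orm2 had 42 counts in HP-AKI, with at least 1 in each library, and 0 in Sham, which is at least 14.2-fold higher on the same assumption of 3 counts in all Sham libraries together. Orm3 had 11 counts in HP-AKI and 7 in Sham. Orm1 and Orm2 transcripts were identical at 91.0% of aligned positions and shared 20.4% of the 50-base windows of Orm1, so their counts are uncertain.

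Between genes, levels were compared as scaled CPM per kilobase. In HP-AKI libraries the order by mean was Cp at 18.2, Hp at 9.86, Saa3 at 6.54, Lbp at 3.43, Saa1 at 1.08, Itih4 at 0.667, Hpx at 0.564, Orm1 at 0.521 and Saa2 at 0.275 CPM per kilobase. In this order Lbp and Saa1 were the only neighbours whose library ranges did not overlap. In Sham libraries the order was Cp at 9.01, Hp at 1.24, Lbp at 1.19, Hpx at 0.369, Orm1 at 0.356, Saa2 at 0.260, Saa1 at 0.140, Itih4 at 0.0807 and Saa3 at 0.0572 CPM per kilobase. Here only Cp and Hp, and Lbp and Hpx, were neighbours without overlap. Saa3 thus stood behind Cp and Hp in HP-AKI and last in Sham, while Cp led in both. The summed CPM of the 9 genes was 211 ± 40.0 in HP-AKI and 95.0 ± 12.2 in Sham libraries (SD, n = 6 each), most of it Cp.

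Likeness of pattern was measured as the mean absolute difference in centred log2 CPM over the 12 libraries, among 13316 genes. The genes nearest to Hp were the keratin genes Krt19 and Krt5, at 0.461 and 0.487. Krt5, a keratin of basal epithelial cells, had 5.65 to 11.8 CPM in HP-AKI and 0.515 to 2.86 CPM in Sham libraries. The genes nearest to Saa3 were Hrh4 and BC055111 at 0.371 and 0.424, and those nearest to Saa1 were Samd5 and Rhou at 0.439 and 0.455. Tighter matches were found for Itih4 (Pxdc1 at 0.156 and Fam83f at 0.172), Lbp (Shc1 at 0.0888 and Cdc42se2 at 0.0937) and Cp (Tra2b at 0.0650 and Plcb4 at 0.0672). For Hpx they were Ppp1r2-ps4 at 0.237 and Chl1 at 0.244. All comparisons include the difference between groups, which any gene with a like fold change shares. In HP-AKI 8, Sham 1 and Sham 2, Cp, Tra2b and Plcb4 were also highest of their groups, and Krt19 and Krt5 lowest.

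The cytokines that induce acute phase genes in the liver were higher in HP-AKI kidneys. Of 9 listed ligands 7 were tested, and 5 were called higher, none lower and 2 did not pass, with a median log2 fold change of 3.70. Among all tested genes 37.7% were called higher. Interleukin-6 (Il6) averaged 5.30 ± 2.34 CPM in HP-AKI and 0.0570 ± 0.0499 CPM in Sham libraries, where it had 12 counts, and its log2 fold change was 6.50 ± 0.46 (SE; edgeR adjusted p = 5.63e-09). Lif, a relative that also signals through gp130, averaged 18.7 ± 3.84 CPM in HP-AKI and 0.571 ± 0.182 CPM in Sham libraries (log2 fold change 5.01 ± 0.21, SE; edgeR adjusted p = 2.42e-11). Clcf1, the most abundant ligand listed, averaged 53.2 ± 9.41 CPM in HP-AKI and 4.08 ± 0.475 CPM in Sham libraries. The ligands that did not pass were Tnf, at 0.363 CPM in HP-AKI and 0.224 CPM in Sham libraries, and Cntf, at 5.19 CPM in HP-AKI and 5.17 CPM in Sham libraries.

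Receptors for these cytokines were mixed. Of 8 tested 5 were called higher and 2 lower, with a median log2 fold change of 0.91. The shares over all tested genes were 37.7% higher and 35.2% lower, 72.8% in all. A list with most genes called does not stand out by that alone. Osmr, the oncostatin M receptor, averaged 97.8 ± 23.8 CPM in HP-AKI and 23.5 ± 3.89 CPM in Sham libraries, and Il6ra, the interleukin-6 receptor, averaged 14.1 ± 1.17 CPM in HP-AKI and 3.49 ± 0.549 CPM in Sham libraries. The log2 fold changes were 2.06 ± 0.15 and 2.01 ± 0.12 (SE; edgeR adjusted p = 7.90e-09 and 8.62e-10). Il6st, which encodes gp130, was abundant in both groups, at 362 ± 22.4 CPM in HP-AKI and 309 ± 14.8 CPM in Sham libraries, and rose little (log2 fold change 0.23 ± 0.07, SE; edgeR adjusted p = 0.00506). Lifr and Il11ra1, the receptors for Lif and interleukin-11, fell, with log2 fold changes of -0.59 and -0.54.

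Among 9 transcription factors of the response 6 were called higher and 2 lower, with a median log2 fold change of 2.02. For all tested genes the shares were 37.7% higher and 35.2% lower, 72.8% in all. Cebpd averaged 4.84 ± 1.20 CPM in HP-AKI and 0.265 ± 0.0785 CPM in Sham libraries, and Cebpb averaged 4.12 ± 0.830 CPM in HP-AKI and 0.431 ± 0.168 CPM in Sham libraries. These C/EBP factors had log2 fold changes of 4.17 ± 0.23 and 3.25 ± 0.23 (SE; edgeR adjusted p = 3.96e-10 and 7.09e-09), whereas Cebpa, their constitutive relative, averaged 16.3 CPM in both groups (edgeR adjusted p = 0.978). Stat3 averaged 340 ± 47.8 CPM in HP-AKI and 65.1 ± 8.45 CPM in Sham libraries. Hnf4a, which drives liver and proximal tubule genes, fell and averaged 155 ± 37.8 CPM in HP-AKI and 800.3 ± 43.7 CPM in Sham libraries (log2 fold change -2.36 ± 0.13, SE; edgeR adjusted p = 4.52e-10).

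Inhibitors of the same signals were higher in all 5 tested of 6 listed, with a median log2 fold change of 2.61. The share called higher over all tested genes was 37.7%. Socs3, the feedback inhibitor of gp130 signalling, averaged 40.2 ± 4.31 CPM in HP-AKI and 1.32 ± 0.363 CPM in Sham libraries (log2 fold change 4.92 ± 0.16, SE; edgeR adjusted p = 2.82e-12). Il1rn, the interleukin-1 receptor antagonist, averaged 8.63 ± 3.79 CPM in HP-AKI and 0.170 ± 0.105 CPM in Sham libraries, a log2 fold change of 5.61 ± 0.38 (SE; edgeR adjusted p = 3.95e-09). Zfp36, which speeds the decay of cytokine messages, had a log2 fold change of 2.61 ± 0.12 (SE; edgeR adjusted p = 4.71e-11).

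The receptors and partners of the 9 proteins were called higher in 8 of 9, with a median log2 fold change of 1.09, and the exception was Slc40a1. Over all tested genes 37.7% were called higher and 35.2% lower. Fpr2, a receptor that binds serum amyloid A, averaged 1.83 ± 1.55 CPM in HP-AKI and 0.218 ± 0.0745 CPM in Sham libraries, with a log2 fold change of 3.04 ± 0.53 (SE; edgeR adjusted p = 1.00e-04). Library HP-AKI 8 carried much of this, at 4.75 CPM, and the log2 fold change without it was 2.46. The neutrophil marker sum, given beside Saa3 above, was also highest in HP-AKI 8 at 172 CPM, and both were lowest in HP-AKI 11 and 12; its part in the Fpr2 values was not tested. Of 12 listed family relatives 7 were tested, and 1 was called higher and 5 lower, with a median log2 fold change of -0.96. With library size scaling only, 4 were called lower. The relatives dropped by the filter include Orm2 and Hephl1, which had counts in HP-AKI only and in a fit with no filter were called higher (edgeR adjusted p = 2.88e-04 and 4.55e-05).

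Other plasma proteins of the acute phase were mixed. Lcn2, the iron-binding lipocalin 2 that injured tubules also make, averaged 2078 ± 327 CPM in HP-AKI and 2.16 ± 0.638 CPM in Sham libraries, a log2 fold change of 9.91 ± 0.22 (SE; edgeR adjusted p = 6.40e-14). Lrg1 averaged 9.75 ± 2.65 CPM in HP-AKI and 0.258 ± 0.116 CPM in Sham libraries (log2 fold change 5.19 ± 0.27, SE; edgeR adjusted p = 2.33e-10). Apcs, serum amyloid P, rose with a log2 fold change of 1.07, and Mbl2, mannose-binding lectin, fell with -2.41. Crp had 9 counts in HP-AKI and 30 in Sham, and Hamp, the hepcidin gene, 20 in HP-AKI, of which 16 were in HP-AKI 12, and 15 in Sham.

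Plasma proteins whose levels fall in an acute phase did not share a direction. Of 6 tested 2 were called higher, 1 lower and 3 did not pass, with a median log2 fold change of -0.19. Among all tested genes the shares were 37.7% higher and 35.2% lower. Ttr, transthyretin, averaged 39.0 ± 10.3 CPM in HP-AKI and 101 ± 23.1 CPM in Sham libraries (log2 fold change -1.37 ± 0.18, SE; edgeR adjusted p = 5.44e-06). Rbp4, retinol-binding protein, averaged 3.68 ± 0.574 CPM in HP-AKI and 0.948 ± 0.345 CPM in Sham libraries (log2 fold change 1.94 ± 0.20, SE; edgeR adjusted p = 5.20e-07). Trf, transferrin, was called higher at 0.33 and Alb, albumin, averaged 24.5 ± 7.28 CPM in HP-AKI and 19.9 ± 4.51 CPM in Sham libraries (edgeR adjusted p = 0.183).

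Hepatocyte markers were listed because the liver is the usual source of these proteins. Their summed level was 586 to 1168 CPM in HP-AKI and 1705 to 2014 CPM in Sham libraries, with 0 of 7 tested genes called higher and 5 lower. Of all tested genes 37.7% were called higher and 35.2% lower. Tat, tyrosine aminotransferase, was dropped by the filter, had 44 counts in HP-AKI and 12 in Sham libraries, and was called higher in a fit with no filter (edgeR adjusted p = 0.00964). Most of the sum was Cyp2e1 and Apob, both of which kidney also expresses; without them it was 20.5 to 42.7 CPM in HP-AKI and 29.0 to 45.9 CPM in Sham libraries. Kidney markers were abundant in every library, at 5713 to 8880 CPM in HP-AKI and 12777 to 15427 CPM in Sham libraries, with 6 of 9 called lower in HP-AKI. Umod, a gene of the thick ascending limb, was called higher, and that call (edgeR adjusted p = 0.0492) was lost with RLE or upper-quartile scaling.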

How the data were processed

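TruSeq RNA v2 libraries were made from kidney RNA, per the labels' protocols. The build GRCm38 and the tools featureCounts, TopHat2 2.1.0 and edgeR are named, without settings, in the submitters' processing notes. The deposited counts are whole numbers of reads per gene made by the authors. The deposited RPKM values of the authors imply a library total 2.97 to 3.47 times the sum of the counts and were used for no test. That ratio was highest in HP-AKI 8, Sham 1 and Sham 2, at 3.47, 3.26 and 3.21, which are the libraries left out together above. The gene length is another value that the authors deposited, used for CPM per kilobase.

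The test was that of edgeR 4.0.16 under R 4.3.3 with limma 3.58.1: filterByExpr with the group, TMM factors, a two-sided quasi-likelihood F-test and Benjamini-Hochberg adjustment over all 17470 tested genes, called at 0.05. Over all genes the common biological coefficient of variation came to 0.178. On simulated data with 17041 tested genes, 37.3% of genes changed by a log2 of 0.5, 97.0% at 1 and 100% at 2 were recovered. Every simulated gene had the same variation, 0.178, and only 67, 67 and 66 genes were changed. These had a minimum expected count, set from Sham levels, that Saa1, Saa2, Saa3, Orm1, Itih4 and Hpx did not reach. The recovered shares therefore do not apply to those members. Bounds and floors, from 3 counts over a group, cover counting error only.

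The members and the 14 gene lists were chosen with earlier results of these data known. Named are all 9 members, in each list of the pathway the 2 called genes with the largest change and the gene with the highest mean CPM, the 2 genes most like each member (tested genes with a symbol and a mean of at least 1 CPM; log2 CPM with a prior count of 2), and untested genes by their counts. Further genes are named to complete the account of a short list and were picked after their values were seen. Alternatives were RLE, upper-quartile and library size scaling, a filter of 1 CPM in 6 samples or none, DESeq2 1.42.0, limma-voom and left-out libraries. Under library size scaling, all genes had a median log2 fold change of 0.16, against 0.04 under TMM. Promoters came from the RefSeq table, which matched 6 of the 9 members. Hp, Lbp and Orm1 are not in it. Some listed genes enter the counts of their lists but are not reported by name here.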

Additional observations from a re-analysis of the deposited data

Results flagged for a closer look

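In 60 groups of 6 libraries, from 30 named genes in both conditions, 8 had a highest library that stood apart from the other 5. This was judged by Dixon's criterion at 95% confidence, a gap that chance gives in about 1 group in 20 of independent normal values. CPM need not be normal and the groups share the same 12 libraries, so the 8 are listed for a closer look and not set against that rate. Among the acute phase genes these were Saa1 in Sham 3, at 0.292 CPM, and Itih4 in Sham 6, at 0.488 CPM. HP-AKI 8 stood apart in Osmr at 143 CPM, in Fpr2 at 4.75 CPM and in Itih2 at 5.80 CPM. Hnf4a stood apart in HP-AKI 12 at 228 CPM. In Sham libraries Osmr stood apart in Sham 2 at 31.1 CPM and Rbp4 in Sham 6 at 1.61 CPM.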

How the results depend on the processing

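Over 21 alternatives the number of genes called lay between 11163 and 14633, and between 12412 and 12961 when 1 library was left out. The number of acute phase genes called lay between 5 and 7, and between 6 and 7 when 1 library was left out; with a filter of 1 CPM in 6 samples 5 of 5 were called, since Saa1 and Hpx were not tested. Among the tested acute phase genes and the pathway genes named by rule, no fold change changed sign; the other genes named were not all followed through every alternative. Hpx lost its call with RLE (adjusted p = 0.0518 by edgeR) or upper-quartile scaling (0.0650), with no filter (0.0859), without HP-AKI 7, 8, 11, 12 or 13, without Sham 1, 2, 5 or 6, and in both joint omissions (0.197 without Sham 1, Sham 2 and HP-AKI 8; 0.0697 without HP-AKI 9, HP-AKI 13, Sham 4 and Sham 6); the cause was not tested. The last omission was added after seeing the data, for the 2 libraries of each group with the most Adipoq, and it moved the log2 fold change of Il1rn to 6.36. No paired analysis was possible because the groups share no replicate numbers. At this depth Saa2 and Orm1 have too few counts for a difference of their size to be read.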
